A study of Danio rerio with 20 samples.

Results

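The livers of 2 CreLox zebrafish that had no hepatocellular carcinoma (HCC) on histology, fish 609 and 625, were compared with the livers of 4 Cre driver controls, fish 630, 628, 621 and 622. They were chosen by the genotype and diagnosis in the sample labels and make up 2 of the 20 liver RNA-seq libraries of the study, which asked whether activated β-catenin switched on in hepatocytes of young zebrafish leads to HCC. The 20 libraries also held 4 CreLox zebrafish with HCC and, from the separate HepABC line, 5 livers with HCC beside 5 of non-transgenic siblings, with 1 library from each fish. HepABC zebrafish carried Tg(fabp10a-pt-beta-catenin). They and their siblings were males of 6 months post fertilization without larval treatment.

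CreLox zebrafish carried Tg(fabp10a-CreERT2;fabp10a-flox-beta-catenin), in which Cre removes a floxed cassette and hepatocytes then express an activated, Xenopus-derived β-catenin. They received 10 µM 4-hydroxytamoxifen (TAM) between 3 and 6 days post fertilization (dpf). The controls were siblings with Tg(fabp10a-CreERT2) alone and received 0.1% ethanol in place of TAM. All 10 fish of the CreLox experiment were male, 11 months post fertilization (mpf) and carriers of CreERT2 under the hepatocyte promoter of fabp10a, so that larval TAM and the β-catenin transgene cannot be told apart. The lox-switch line came from a single founder. In a reporter line with the same Cre driver, the paper found switching without TAM in a small share of larval and in most adult hepatocytes. The diagnosis rests on a different portion of each liver from the one sequenced. The labels do not say whether these 2 livers had changes short of HCC. The frog transgene is no gene of the count table, so its own level was not analysed here.

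β-catenin is the transcriptional effector of the Wnt pathway. In the absence of a Wnt signal it is degraded by a complex that contains Axin, and when stabilized it enters the nucleus and activates genes together with TCF and LEF factors, among them genes such as AXIN2 and WIF1 whose products dampen the pathway. In the mammalian liver, Wnt signaling maintains the gene program of hepatocytes around the central vein, which includes glutamine synthetase and bile acid synthesis, and activating mutations of β-catenin are frequent in human HCC.

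Library totals were 23781287 and 24687292 counts in fish 609 and 625 and 20903187 to 29925385 counts in controls. Hepatocyte markers were abundant in all of them, with fabp10a at 15917 and 10499.9 CPM in CreLox zebrafish without HCC, against 13482, 17734, 26453 and 24288 CPM in controls. The p-values below measure the spread between single fish. Values are in CPM, counts scaled to a common library total after TMM scaling, and those of the controls are given in the order of fish 630, 628, 621 and 622 throughout. The controls fell into pairs. TMM factors were 1.04 and 1.07 in fish 630 and 628 and 0.772 and 0.782 in fish 621 and 622. Of 16837 genes tested, 288 were at least 4-fold higher in both fish 628 and 630 than in both other controls, and 282 were at least 4-fold higher in both fish 621 and 622. Control fish 628 had the highest levels of the skin keratin genes krt5 and krt4, with krt5 at 0.129 and 0.888 CPM in CreLox zebrafish without HCC, against 0.230, 695, 0.909 and 0.485 CPM in controls, and krt4 at 14.1 and 13.02 CPM in CreLox zebrafish without HCC, against 10.9, 169, 24.0 and 31.8 CPM in controls.

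In CreLox livers without HCC, 50 genes were significantly upregulated and 3 significantly downregulated relative to Cre driver controls, at an adjusted p under 0.05 from edgeR. These are 0.297% and 0.0178% of the genes tested. The upregulated genes included the fatty acid binding protein gene FABP1, the Wnt inhibitor gene WIF1, the cyclin gene CCND2 and 4 genes of Pim-related kinases. They are described below by the known role of their products, a grouping made after the calls were seen and not tested. The downregulated genes were egr1, cep135 and anpeplb. Log2 fold changes of the upregulated genes ran from 1.07 to 10.16 with a median of 4.72, and over all genes tested the median was -0.05. For each of the 53 genes both CreLox fish without HCC lay beyond all 4 controls, which also held for 1673 of all genes tested in the upward direction (9.94%) and for 1394 in the downward direction (8.28%). In bulk RNA, a change in the number of cells of a type and a change of RNA per cell cannot be told apart. Leaving out single fish gave between 24 and 80 called genes, and 13 of the 53 were called in each of the 10 leave-one-out fits, whereas 21 were called in fewer than 5 of them. Omitting fish 609 left 24 called genes and omitting fish 625 left 30. Omission of control fish 630, 628 or 621 gave 24, 34 and 30. Fish with HCC enter through the shared spread, and it was 35, 32 and 80 without fish 604, 623 and 624. With the spread estimated from the compared groups alone, 26 genes were called, 18 of them among the 53.

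**Figure D1:**
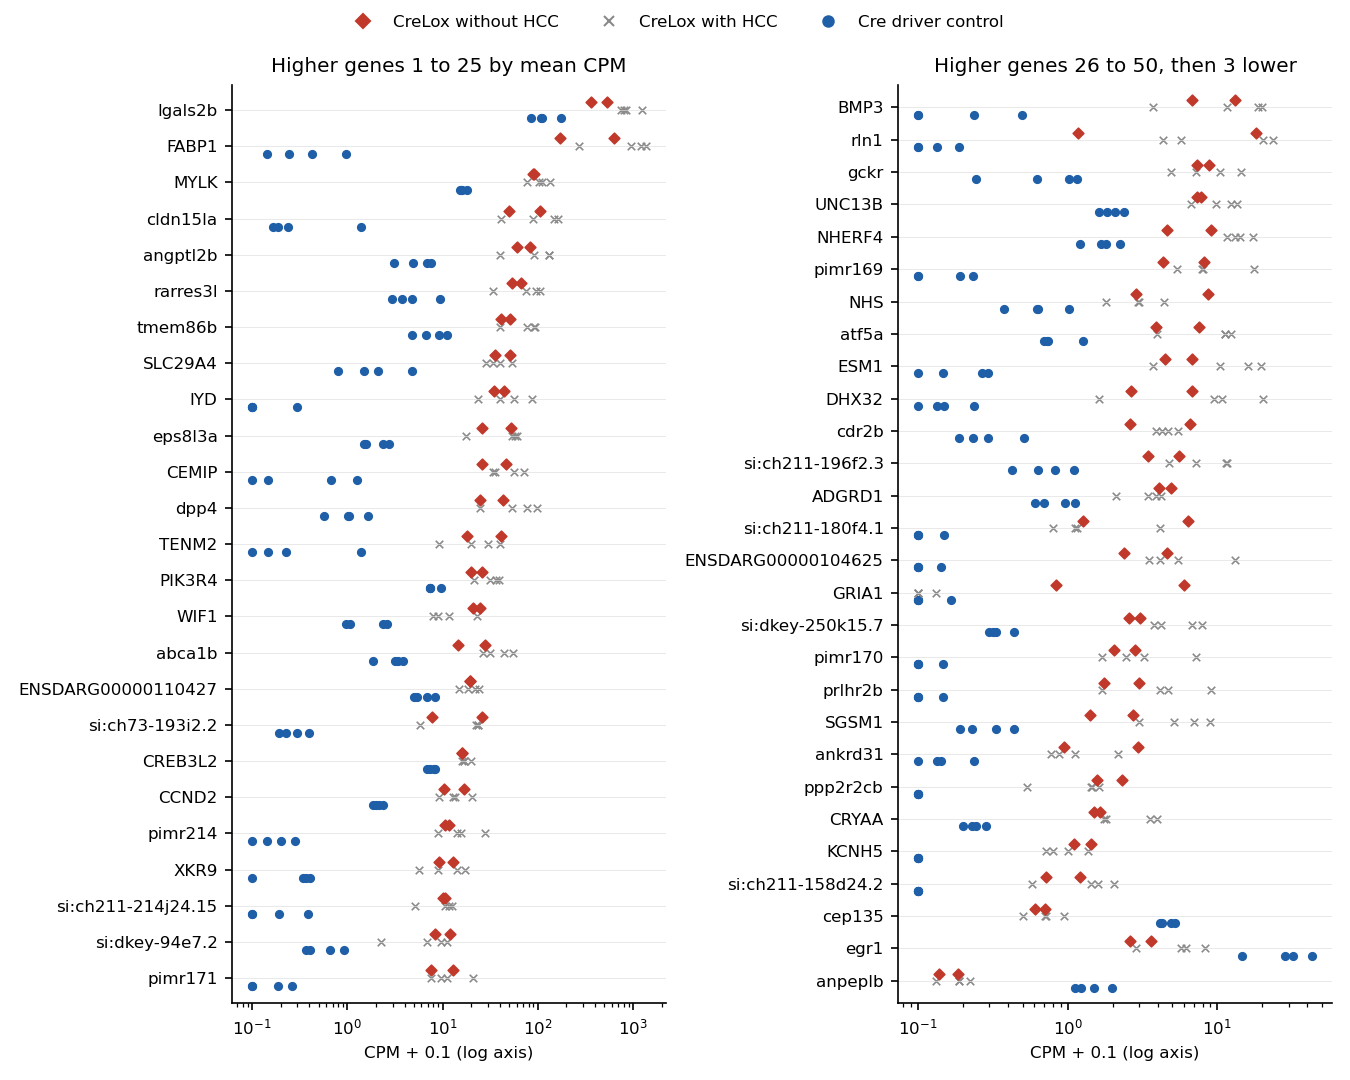
CPM plus 0.1 on a log axis for the 50 upregulated and 3 downregulated genes, with 1 symbol per fish: red diamonds for CreLox without HCC, grey crosses for CreLox with HCC and blue circles for controls. The left panel has the 25 upregulated genes with the highest mean, and the right panel the other 25 followed by the 3 downregulated genes, where the red diamonds lie left of all blue circles.

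The highest log2 fold change was that of FABP1, and IYD, abca1b, gckr and tmem86b are other upregulated genes with metabolic roles. FABP1 (ENSDARG00000059227), an intracellular fatty acid binding protein gene whose symbol a second identifier shares, was at 634 and 169.8 CPM in CreLox zebrafish without HCC, against 0.875, 0.332, 0.0433 and 0.146 CPM in controls. Both CreLox fish lay far above every control (a log2 difference of 10.16 ± 1.01 (SE), edgeR adjusted p = 0.00554). IYD (ENSDARG00000076056), which encodes the deiodinase that recovers iodide from iodotyrosines, was at 34.2 and 44.2 CPM in CreLox zebrafish without HCC, against 0, 0, 0 and 0.194 CPM in controls. The controls other than fish 622 had no count of IYD (log2 fold change 9.69 ± 0.88 (SE), adjusted p = 0.00293 by edgeR). A smaller change was seen for abca1b (ENSDARG00000079009), a gene for a transporter that exports cholesterol to apolipoprotein A-I, with 27.9 and 14.5 CPM in CreLox zebrafish without HCC, against 3.32, 3.05, 1.77 and 3.74 CPM in controls. The groups did not overlap (2.83 ± 0.38 (SE) on the log2 scale, with an edgeR adjusted p = 0.0137). gckr (ENSDARG00000086620), whose product binds and inhibits glucokinase, was at 8.69 and 7.26 CPM in CreLox zebrafish without HCC, against 1.06, 0.928, 0.519 and 0.146 CPM in controls, again without overlap (log2 fold change 3.56 with a standard error of 0.58, edgeR adjusted p = 0.0391). tmem86b (ENSDARG00000038296), a lysoplasmalogenase gene, reached 50.6 and 40.6 CPM in CreLox zebrafish without HCC, against 6.68, 4.71, 9.05 and 10.9 CPM in controls (a log2 difference of 2.54 ± 0.38 (SE), edgeR adjusted p = 0.0232). FABP1 and IYD were called in each leave-one-out fit, abca1b in 8 of the 10, tmem86b in 4 and gckr in 2.

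Other members of these families were mostly not called. Of 9 fatty acid binding protein genes tested, FABP1 alone was called by edgeR and by DESeq2, and the median log2 fold change of the 9 was -0.63. The liver's main member fabp10a, whose promoter drives both transgenes, had a log2 fold change of -0.63 (adjusted p = 0.513 from edgeR), with overlapping groups. FABP2 was at 195 and 198 CPM in CreLox zebrafish without HCC, against 51.1, 148, 153 and 52.6 CPM in controls. FABP7, known from the brain, was at 106 and 29.4 CPM in CreLox zebrafish without HCC, against 254, 176, 53.8 and 75.2 CPM in controls. fabp10b, the paralog of fabp10a, was at 2.37 and 1.43 CPM in CreLox zebrafish without HCC, against 1.152, 1.82, 7.49 and 2.52 CPM in controls, and for FABP7 and fabp10b the groups overlapped. Of 21 thyroid hormone genes tested, IYD alone was called by edgeR, whereas DESeq2 called 3 higher. Thyroglobulin (TG), the protein on which iodotyrosines form in the thyroid, was at 2.71 and 13.9 CPM in CreLox zebrafish without HCC, against 0.737, 0.166, 0.216 and 1.165 CPM in controls, with both CreLox fish above the controls and an adjusted p of 0.132 from edgeR. Among 34 genes of fatty acid synthesis and storage 0 were called by edgeR or DESeq2, with 3 higher and 0 lower at an unadjusted p under 0.05. PLIN2, which coats lipid droplets, was at 122 and 67.0 CPM in CreLox zebrafish without HCC, against 21.8, 28.9, 5.63 and 39.2 CPM in controls (log2 fold change 1.99 ± 0.88 (SE), adjusted p = 0.485 by edgeR), a gene chosen here after its values were seen.

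The upregulated genes rln1, CEMIP, BMP3, ESM1, angptl2b and lgals2b encode secreted proteins. rln1 (ENSDARG00000103762), which encodes a peptide hormone of the relaxin family, was at 17.98 and 1.08 CPM in CreLox zebrafish without HCC, against 0, 0.0332, 0.0866 and 0 CPM in controls. The level of fish 625 was many-fold below that of fish 609, the controls held 3 counts in all, and the ratio of counts per library size was 289 (95% counting interval 98.3 to 1407). Without fish 609 the log2 fold change of rln1 was 4.93 and the gene was not called. CEMIP (ENSDARG00000039881), a gene for a hyaluronan-binding protein, was at 46.1 and 25.6 CPM in CreLox zebrafish without HCC, against 0.0461, 1.161, 0 and 0.582 CPM in controls (6.25 ± 0.92 (SE) on the log2 scale, with an edgeR adjusted p = 0.0232). BMP3 (ENSDARG00000060526), a ligand gene of the bone morphogenetic protein family, was at 6.71 and 13.1 CPM in CreLox zebrafish without HCC, against 0.138, 0.398, 0 and 0 CPM in controls (log2 fold change 6.02 with a standard error of 0.94, edgeR adjusted p = 0.0349), without overlap. ESM1 (ENSDARG00000104370), which encodes the secreted proteoglycan endocan, was at 4.39 and 6.72 CPM in CreLox zebrafish without HCC, against 0.0461, 0.166, 0 and 0.194 CPM in controls (a log2 difference of 5.68 ± 0.78 (SE), edgeR adjusted p = 0.0155). angptl2b (ENSDARG00000068369), an angiopoietin-like gene, was at 81.9 and 60.1 CPM in CreLox zebrafish without HCC, against 7.55, 4.81, 3.03 and 6.80 CPM in controls (log2 fold change 3.68 ± 0.47 (SE), adjusted p = 0.0117 by edgeR). Of these, angptl2b was called in 9 of the 10 leave-one-out fits, ESM1 in 7, CEMIP in 5, and rln1 and BMP3 in 2. The galectin gene lgals2b (ENSDARG00000038153) was already abundant in controls, with 535 and 364 CPM in CreLox zebrafish without HCC, against 109, 109.7, 85.4 and 174 CPM in controls (1.91 ± 0.31 (SE) on the log2 scale, with an edgeR adjusted p = 0.0421), and was called in 3 of the 10.

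The products of cldn15la, dpp4, SLC29A4, TENM2 and ADGRD1 are proteins of the cell membrane. cldn15la (ENSDARG00000016081), a claudin gene of tight junctions, was at 106 and 49.9 CPM in CreLox zebrafish without HCC, against 0.138, 0.0663, 0.0866 and 1.31 CPM in controls (log2 fold change 7.65 with a standard error of 1.01, edgeR adjusted p = 0.0136). Its highest control, fish 622, stood apart from the other controls and was still far below both CreLox fish. dpp4 (ENSDARG00000079420), a membrane-bound serine dipeptidase gene, was at 42.5 and 24.5 CPM in CreLox zebrafish without HCC, against 0.921, 0.464, 0.952 and 1.55 CPM in controls (a log2 difference of 5.12 ± 0.56 (SE), edgeR adjusted p = 0.00679). SLC29A4 (ENSDARG00000059690), whose product carries monoamines across the plasma membrane, was at 35.4 and 51.2 CPM in CreLox zebrafish without HCC, against 4.65, 1.99, 0.693 and 1.41 CPM in controls (log2 fold change 4.31 ± 0.57 (SE), adjusted p = 0.0136 by edgeR). It was 1 of 2 genes also called by limma voom, the other being MYLK. TENM2 (ENSDARG00000011171), a teneurin adhesion protein gene, was at 17.8 and 41.2 CPM in CreLox zebrafish without HCC, against 1.29, 0, 0.130 and 0.0485 CPM in controls (6.37 ± 1.09 (SE) on the log2 scale, with an edgeR adjusted p = 0.0488), with control fish 630 above the other controls. The adhesion receptor gene ADGRD1 was at 3.96 and 4.83 CPM in CreLox zebrafish without HCC, against 0.507, 0.597, 0.866 and 1.02 CPM in controls (log2 fold change 2.55 with a standard error of 0.37, edgeR adjusted p = 0.0192). In the leave-one-out fits dpp4 was called in 10 of 10, SLC29A4 in 9, cldn15la in 8, ADGRD1 in 5 and TENM2 in 2. The symbols SLC29A4 and TENM2 are each shared with another identifier, and whether reads were assigned to the right copy was not examined.

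Several receptor, channel and phosphatase genes were nearly silent in controls, so that a fold is a limit or a ratio of few counts. ppp2r2cb (ENSDARG00000062277), a regulatory subunit gene of protein phosphatase 2A, had 1.46 and 2.201 CPM in CreLox zebrafish without HCC and no count in any control. Set against 3 counts per control library, or 0.128 CPM on average, it was at least 14.3-fold higher, with an adjusted p of 0.0167 by edgeR. KCNH5 (ENSDARG00000069117), a voltage-gated potassium channel gene, had 1.33 and 1.00 CPM in CreLox zebrafish without HCC and no count in any control. On the same floor it was at least 9.11-fold higher, with an adjusted p of 0.0137 by edgeR. prlhr2b, a receptor gene for prolactin-releasing hormone, was at 2.88 and 1.66 CPM in CreLox zebrafish without HCC, against 0.0461, 0, 0 and 0 CPM in controls, a ratio of counts per library size of 214 (95% counting interval 37.6 to 8525) (adjusted p = 0.0117 from edgeR). GRIA1 (ENSDARG00000032714), a subunit gene of AMPA-type glutamate receptors, was at 0.731 and 5.87 CPM in CreLox zebrafish without HCC, against 0, 0.0663, 0 and 0 CPM in controls, a ratio of 164 (95% counting interval 44.8 to 1368) (adjusted p = 0.0367 from edgeR). Fish 625 carried most of the GRIA1 counts, and the gene was called in 2 of the 10 leave-one-out fits. These intervals and floors cover counting error only. GRIA1 and KCNH5 share their symbols with other identifiers.

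Of 25 Wnt feedback and target genes tested, 1 was called by edgeR and 2 by DESeq2, and the group had a median log2 fold change of 0.20. WIF1 (ENSDARG00000005541), a secreted Wnt inhibitor gene, was at 20.6 and 24.9 CPM in CreLox zebrafish without HCC, against 0.967, 2.25, 0.866 and 2.52 CPM in controls. Both CreLox fish were alike and well above the controls (a log2 difference of 3.77 ± 0.51 (SE), edgeR adjusted p = 0.015). WIF1 was called in 7 of the 10 leave-one-out fits, with edgeR's adjusted p at 0.0606 without fish 609, 0.0772 without fish 625 and 0.0591 without control fish 630. At an unadjusted p under 0.05, 6 of the 25 were higher and 2 lower, and both CreLox fish lay above all controls for 8 and below them for 3. Of all 16837 genes tested, 887 were higher and 825 lower at that threshold. Both CreLox fish lay above all controls for 9.94% of all genes and below them for 8.28%. LEF1 (ENSDARG00000031894), a DNA-binding partner of β-catenin, was at 1.85 and 2.32 CPM in CreLox zebrafish without HCC, against 0.0461, 0.298, 0 and 0.0971 CPM in controls, with no overlap but a wide error (log2 fold change 4.10 ± 0.90 (SE), adjusted p = 0.131 by edgeR). AXIN2 (ENSDARG00000100149) was at 10.4 and 38.62 CPM in CreLox zebrafish without HCC, against 8.57, 9.85, 5.32 and 8.79 CPM in controls, so that fish 625 was clearly above the controls and fish 609 only just (1.59 ± 0.45 (SE) on the log2 scale, with an edgeR adjusted p = 0.257). TNFRSF19, a receptor gene and known Wnt target, was at 10.5 and 10.6 CPM in CreLox zebrafish without HCC, against 5.16, 3.22, 3.81 and 6.36 CPM in controls (log2 fold change 1.19 with a standard error of 0.33, edgeR adjusted p = 0.246). The endogenous β-catenin gene CTNNB1 was at 214 and 165 CPM in CreLox zebrafish without HCC, against 142, 118, 86.7 and 99.9 CPM in controls (log2 fold change 0.77, adjusted p = 0.37 by edgeR). Both CreLox fish lay above all controls, and whether reads of the frog transgene were counted on this gene was not tested.

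Glutamine synthetase and the other tested genes of glutamine, ammonia and urea metabolism were not called. Glutamine synthetase is encoded by more than 1 copy with the symbol GLUL. The copy ENSDARG00000099776 was at 160.4 and 30.2 CPM in CreLox zebrafish without HCC, against 22.4, 17.3, 179.9 and 116 CPM in controls. The copy ENSDARG00000100003 was at 25.03 and 4.79 CPM in CreLox zebrafish without HCC, against 31.7, 158, 44.1 and 16.5 CPM in controls. In both copies the CreLox fish differed from each other by several-fold, and only fish 625 in the second copy was outside the range of the controls. In the first copy the control pairs also stood apart from each other. Over 26 genes of glutamine, ammonia and urea metabolism 0 were called by edgeR or DESeq2, with 1 higher and 1 lower at an unadjusted p under 0.05. Both CreLox fish were above all controls for 0 of them and below for 4, beside 9.94% and 8.28% of all genes. Of those 4, ARG2, a mitochondrial arginase gene, was at 147 and 150.0 CPM in CreLox zebrafish without HCC, against 1048, 306, 895 and 1048 CPM in controls (a log2 difference of -2.47 ± 0.93 (SE), edgeR adjusted p = 0.413). SLC38A4, an amino acid transporter gene of hepatocytes, was at 2856 and 2576 CPM in CreLox zebrafish without HCC, against 6497, 5014, 7932 and 6166 CPM in controls (log2 fold change -1.24 ± 0.67 (SE), adjusted p = 0.572 by edgeR). RHAG, an ammonia channel gene that is also an erythrocyte gene, was at 2.15 and 1.70 CPM in CreLox zebrafish without HCC, against 1.38, 3.08, 13.5 and 3.45 CPM in controls, with overlapping groups.

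Bile acid genes had values on both sides of the controls, and 0 of 31 tested were called by edgeR, against 3 higher and 1 lower by DESeq2 and 5 higher and 3 lower at an unadjusted p under 0.05 from edgeR. cyp39a1, an oxysterol hydroxylase gene, was at 3.74 and 0.116 CPM in CreLox zebrafish without HCC, against 14.7, 21.5, 46.4 and 50.7 CPM in controls. Fish 625 had almost none of it and fish 609 less than any control (-4.12 ± 1.08 (SE) on the log2 scale, with an edgeR adjusted p = 0.228). fgfr4, which encodes the receptor through which a gut hormone represses bile acid synthesis, was at 106 and 176 CPM in CreLox zebrafish without HCC, against 29.5, 64.3, 29.3 and 39.8 CPM in controls (log2 fold change 1.79 with a standard error of 0.44, edgeR adjusted p = 0.189). Its co-receptor gene klb was at 0.215 and 1.31 CPM in CreLox zebrafish without HCC, against 0.0461, 0, 0 and 0.0971 CPM in controls. NR1H4, which encodes the bile acid receptor FXR, was at 87.0 and 69.8 CPM in CreLox zebrafish without HCC, against 45.3, 39.9, 45.6 and 48.1 CPM in controls (adjusted p = 0.172 from edgeR). cyp46a1.1, a cholesterol hydroxylase gene, was at 6.06 and 3.24 CPM in CreLox zebrafish without HCC, against 1.38, 0.962, 1.65 and 1.65 CPM in controls (a log2 difference of 1.72 ± 0.46 (SE), edgeR adjusted p = 0.235). CYP8B1, the sterol hydroxylase gene of cholic acid synthesis, was at 0.473 and 2.59 CPM in CreLox zebrafish without HCC, against 0.691, 64.8, 5.02 and 2.23 CPM in controls (log2 fold change -3.56 ± 1.71 (SE), adjusted p = 0.522 by edgeR), and its groups overlapped. Both CreLox fish lay above all controls for 5 of the 31 genes and below them for 3, beside 9.94% and 8.28% of all genes. The genes klb and NR1H4 were chosen after their values were seen.

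Among genes of transcription and the cell cycle, CCND2 (ENSDARG00000051748), cyclin D2 of the G1 phase, was at 16.7 and 10.196 CPM in CreLox zebrafish without HCC, against 1.89, 2.29, 1.77 and 2.04 CPM in controls. The controls were within a narrow range (2.75 ± 0.32 (SE) on the log2 scale, with an edgeR adjusted p = 0.00679), and CCND2 shares its symbol with another identifier. Over 42 mitosis and DNA replication genes 0 were called by edgeR or DESeq2, and 1 was higher at an unadjusted p under 0.05. Their median log2 fold change was 0.35, and both CreLox fish lay above all controls for 5, beside 9.94% of all genes. The bZIP transcription factor genes atf5a and CREB3L2 were upregulated. atf5a was at 7.397 and 3.78 CPM in CreLox zebrafish without HCC, against 0.645, 0.597, 1.17 and 0.631 CPM in controls (log2 fold change 2.87 with a standard error of 0.48, edgeR adjusted p = 0.0421). CREB3L2 was at 15.8 and 15.99 CPM in CreLox zebrafish without HCC, against 7.23, 7.99, 8.27 and 6.80 CPM in controls, the smallest upregulation called (a log2 difference of 1.07 ± 0.18 (SE), edgeR adjusted p = 0.0424). Each of the bZIP genes was called in 1 of the 10 leave-one-out fits. Across all alternative fits, edgeR's adjusted p reached 0.382 for atf5a and 0.271 for CREB3L2. Of 44 hepatocyte identity genes 0 were called by edgeR and 1 by DESeq2, with 4 higher and 5 lower at an unadjusted p under 0.05. The nuclear receptor gene hnf4b was at 77.3 and 82.6 CPM in CreLox zebrafish without HCC, against 16.3, 19.8, 30.3 and 34.8 CPM in controls (log2 fold change 1.66 ± 0.32 (SE), adjusted p = 0.0867 by edgeR). TAT, the tyrosine aminotransferase gene, was at 347 and 870.4 CPM in CreLox zebrafish without HCC, against 1617, 709, 2326 and 3090.1 CPM in controls (-1.67 ± 0.64 (SE) on the log2 scale, with an edgeR adjusted p = 0.416). CEBPA, a transcription factor gene of hepatocytes, was at 70.6 and 48.1 CPM in CreLox zebrafish without HCC, against 259.8, 289, 15.02 and 7.62 CPM in controls (log2 fold change -1.27 with a standard error of 1.27, edgeR adjusted p = 0.776). tdo2b, of tryptophan breakdown, was at 467 and 421 CPM in CreLox zebrafish without HCC, against 142, 24.6, 1814 and 2093 CPM in controls (a log2 difference of -1.197 ± 1.39 (SE), edgeR adjusted p = 0.812). For TAT, CEBPA and tdo2b the groups overlapped, and the controls of CEBPA and tdo2b spread widely. The copy of MYC with identifier ENSDARG00000045695 was at 1.38 and 9.93 CPM in CreLox zebrafish without HCC, against 1.198, 2.19, 0.433 and 1.94 CPM in controls. The copy ENSDARG00000007241 was at 206 and 11.9 CPM in CreLox zebrafish without HCC, against 135, 121, 106 and 17.1 CPM in controls, and neither had a common direction in the CreLox fish. The growth regulator gene MTOR was at 26.1 and 35.2 CPM in CreLox zebrafish without HCC, against 36.1, 24.7, 31.5 and 32.7 CPM in controls. JUN was at 24.2 and 30.2 CPM in CreLox zebrafish without HCC, against 15.5, 31.3, 6.67 and 18.4 CPM in controls, and for both genes the groups overlapped.

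Other upregulated genes act on the cytoskeleton and on membrane traffic. MYLK (ENSDARG00000034801), the myosin light chain kinase gene, was at 92.2 and 89.7 CPM in CreLox zebrafish without HCC, against 15.3, 15.7, 15.5 and 17.96 CPM in controls. The values of each group were close together (log2 fold change 2.496 ± 0.22 (SE), adjusted p = 0.00293 by edgeR), and the gene was called in all 19 alternatives. eps8l3a, of a family of actin regulators, was at 52.4 and 25.8 CPM in CreLox zebrafish without HCC, against 1.38, 2.62, 1.47 and 2.28 CPM in controls (4.33 ± 0.49 (SE) on the log2 scale, with an edgeR adjusted p = 0.00679). NHS, another actin regulator gene, was at 2.75 and 8.54 CPM in CreLox zebrafish without HCC, against 0.276, 0.928, 0.519 and 0.534 CPM in controls (log2 fold change 3.29 with a standard error of 0.54, edgeR adjusted p = 0.0421), with fish 625 higher than fish 609. UNC13B, needed for priming of secretory vesicles, was at 7.18 and 7.72 CPM in CreLox zebrafish without HCC, against 1.98, 1.72, 1.52 and 2.28 CPM in controls (a log2 difference of 1.99 ± 0.29 (SE), edgeR adjusted p = 0.0232). PIK3R4, the regulatory subunit gene of class III phosphoinositide 3-kinase, was at 25.9 and 19.7 CPM in CreLox zebrafish without HCC, against 9.63, 7.23, 7.32 and 7.23 CPM in controls (log2 fold change 1.54 ± 0.26 (SE), adjusted p = 0.0424 by edgeR). XKR9, related to phospholipid scramblases, was at 12.6 and 9.08 CPM in CreLox zebrafish without HCC, against 0, 0.265, 0.303 and 0.243 CPM in controls (5.69 ± 0.66 (SE) on the log2 scale, with an edgeR adjusted p = 0.00679). The lens crystallin gene CRYAA was at 1.55 and 1.39 CPM in CreLox zebrafish without HCC, against 0.184, 0.0995, 0.130 and 0.146 CPM in controls (log2 fold change 3.37 with a standard error of 0.47, edgeR adjusted p = 0.0155). Its promoter drives the eye fluorescence markers of both constructs, of which controls carry only that of the Cre driver. Whether the constructs bear on the CRYAA counts was not tested. Leaving out 1 fish at a time, MYLK, eps8l3a and XKR9 were called in 10 of 10, CRYAA in 5, UNC13B in 4, NHS in 2 and PIK3R4 in 1. MYLK and NHS share their symbols with other identifiers.

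Of 6 genes of Pim-related kinases (pimr) tested, 4 were upregulated, a group picked from the calls. pimr214 (ENSDARG00000103365) was at 10.5 and 11.5 CPM in CreLox zebrafish without HCC, against 0.184, 0.0995, 0.0433 and 0 CPM in controls (a log2 difference of 6.97 ± 0.63 (SE), edgeR adjusted p = 0.00293). pimr171 was at 7.397 and 12.7 CPM in CreLox zebrafish without HCC, against 0, 0.166, 0.0866 and 0 CPM in controls (log2 fold change 7.06 ± 0.73 (SE), adjusted p = 0.00588 by edgeR). pimr169 was at 4.21 and 8.03 CPM in CreLox zebrafish without HCC, against 0.0921, 0.133, 0 and 0 CPM in controls (6.54 ± 0.76 (SE) on the log2 scale, with an edgeR adjusted p = 0.00679). pimr170 was at 1.94 and 2.70 CPM in CreLox zebrafish without HCC, against 0.0461, 0, 0 and 0 CPM in controls, a ratio of 224 (95% counting interval 39.3 to 8909) on a single control count. Each of the 4 was close to absent in controls and present in both CreLox fish. The genes not called were pimr208 at 2.19 and 8.34 CPM in CreLox zebrafish without HCC, against 1.29, 0, 1.08 and 0.0485 CPM in controls (log2 fold change 3.14 with a standard error of 1.09, edgeR adjusted p = 0.386), and pimr191 at 0 and 0.425 CPM in CreLox zebrafish without HCC, against 0.276, 0.0995, 0.346 and 0.0485 CPM in controls (adjusted p = 0.975 from edgeR). These kinase genes belong to a multi-copy family whose sequences were not compared here. Counts of single members can therefore be uncertain, and the number of called members is not a number of independent observations. Uncharacterized genes included si:ch211-214j24.15 at 9.93 and 10.5 CPM in CreLox zebrafish without HCC, against 0.0921, 0, 0 and 0.291 CPM in controls (a log2 difference of 6.80 ± 0.80 (SE), edgeR adjusted p = 0.00679). Another was si:ch73-193i2.2 at 25.8 and 7.72 CPM in CreLox zebrafish without HCC, against 0.0921, 0.298, 0.130 and 0.194 CPM in controls (log2 fold change 6.47 ± 0.70 (SE), adjusted p = 0.00679 by edgeR). Also uncharacterized, si:dkey-94e7.2 was at 12.0 and 8.23 CPM in CreLox zebrafish without HCC, against 0.553, 0.265, 0.303 and 0.825 CPM in controls (4.39 ± 0.60 (SE) on the log2 scale, with an edgeR adjusted p = 0.0155). DHX32, of the DEAH-box helicases, was at 6.71 and 2.55 CPM in CreLox zebrafish without HCC, against 0.138, 0.0332, 0 and 0.0485 CPM in controls (log2 fold change 6.33 with a standard error of 1.02, edgeR adjusted p = 0.0391), with 5 counts in all controls, and shares its symbol with another identifier. cdr2b was at 6.49 and 2.51 CPM in CreLox zebrafish without HCC, against 0.415, 0.133, 0.0866 and 0.194 CPM in controls (a log2 difference of 4.44 ± 0.52 (SE), edgeR adjusted p = 0.00698). ankrd31, an ankyrin repeat gene, was at 2.84 and 0.850 CPM in CreLox zebrafish without HCC, against 0.138, 0.0332, 0.0433 and 0 CPM in controls (log2 fold change 5.004 ± 0.84 (SE), adjusted p = 0.0424 by edgeR). In DHX32, cdr2b and ankrd31 fish 609 was over 2-fold higher than fish 625. Leaving out 1 fish at a time, cdr2b was called in 9 of 10, si:dkey-94e7.2 in 5, DHX32 in 2 and ankrd31 in 1.

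Of the 3 downregulated genes, cep135 (ENSDARG00000002991), a gene for a centriole assembly protein, was at 0.602 and 0.502 CPM in CreLox zebrafish without HCC, against 5.11, 4.05, 4.16 and 4.81 CPM in controls. Both groups were tight and far apart (-3.03 ± 0.38 (SE) on the log2 scale, with an edgeR adjusted p = 0.00981), and the other 21 of 22 centrosome genes tested were not called by edgeR or DESeq2. egr1 (ENSDARG00000037421), an immediate early transcription factor gene, was at 2.49 and 3.51 CPM in CreLox zebrafish without HCC, against 28.3, 43.0, 14.6 and 32.0 CPM in controls, without overlap (log2 fold change -3.29 with a standard error of 0.55, edgeR adjusted p = 0.0421). anpeplb (ENSDARG00000041083), an aminopeptidase-like gene, was at 0.0860 and 0.0386 CPM in CreLox zebrafish without HCC, against 1.01, 1.39, 1.13 and 1.89 CPM in controls (a log2 difference of -4.36 ± 0.70 (SE), edgeR adjusted p = 0.0376). Leaving out 1 fish at a time, cep135 was called in 8 of 10, egr1 in 3 and anpeplb in 2.

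The drop of egr1 was shared in direction by other immediate early genes, which respond within minutes to growth factors and stress. Of 32 tested, 14 were lower and 1 higher at an unadjusted p under 0.05, and both CreLox fish lay below all controls for 14 and above them for 1, KLF6. DESeq2 called 6 of them lower. Over all 16837 genes, 887 were higher and 825 lower at an unadjusted p under 0.05. Both CreLox fish lay below all controls for 8.28% of all genes and above them for 9.94%. The median log2 fold change of the 32 was -1.14 and the quartiles were -2.12 and -0.47. The median was -1.18 against control fish 628 and 630 and -1.01 against fish 621 and 622, and -0.88 in fish 609 and -1.05 in fish 625. FOS, the prototype of the group, was at 0.258 and 0.193 CPM in CreLox zebrafish without HCC, against 42.2, 44.0, 2.12 and 2.77 CPM in controls (log2 fold change -6.64 ± 1.72 (SE), adjusted p = 0.223 by edgeR), and the control pairs stood far apart. ier2b was at 0.602 and 0.502 CPM in CreLox zebrafish without HCC, against 6.08, 13.5, 2.68 and 1.99 CPM in controls (-3.45 ± 0.97 (SE) on the log2 scale, with an edgeR adjusted p = 0.249). For csrnp1a, at 1.94 and 0.772 CPM in CreLox zebrafish without HCC, against 1.52, 0.82902, 25.7 and 22.5 CPM in controls, fish 609 overlapped the controls. BTG2, also a p53 target gene, was at 4.26 and 0.657 CPM in CreLox zebrafish without HCC, against 12.4, 28.9, 19.9 and 11.2 CPM in controls (log2 fold change -2.89 with a standard error of 0.85, edgeR adjusted p = 0.286). KLF6 was at 51.8 and 34.1 CPM in CreLox zebrafish without HCC, against 18.1, 29.4, 14.8 and 21.4 CPM in controls.

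Many large differences in both fish did not pass the test. Both CreLox fish were at least 4-fold above the highest control for 102 genes, 37 of them called, and at least 4-fold below the lowest control for 28, 3 of them called. No floor was set here, so any count met these limits where the other side had none. CACNB4 thus entered with 0.0386 CPM in fish 625 and no count in controls. On the lower side NOS2 entered with 0.0433 CPM in control fish 621 and no count in either CreLox fish. Of the genes not called, 10 higher genes had a mean of at least 10 CPM, and 3 lower genes a control mean of at least 10 CPM. The following were chosen after their values were seen. s100a10a, of the S100 calcium-binding family, was at 247 and 56.8 CPM in CreLox zebrafish without HCC, against 3.87, 2.69, 7.32 and 8.15 CPM in controls (a log2 difference of 4.79 ± 1.11 (SE), edgeR adjusted p = 0.159). il17rel, an interleukin 17 receptor-like gene, was at 48.3 and 12.9 CPM in CreLox zebrafish without HCC, against 0.0461, 0.365, 0 and 1.41 CPM in controls (log2 fold change 6.09 ± 1.098 (SE), adjusted p = 0.0639 by edgeR). cntfr, the receptor gene for ciliary neurotrophic factor, was at 39.9 and 4.98 CPM in CreLox zebrafish without HCC, against 0.0461, 0.531, 0 and 0.0971 CPM in controls (6.87 ± 1.204 (SE) on the log2 scale, with an edgeR adjusted p = 0.0554). In these 3 genes fish 609 was several-fold higher than fish 625. ANKRD1, a cardiac and injury-responsive ankyrin repeat gene, was at 29.5 and 6.84 CPM in CreLox zebrafish without HCC, against 0.138, 0.0332, 0.130 and 0.388 CPM in controls (log2 fold change 6.76 with a standard error of 1.46, edgeR adjusted p = 0.123). LDLRAD2 had 24.3 and 2.24 CPM in CreLox zebrafish without HCC and no count in any control (adjusted p = 0.0628 from edgeR). Toward lower values, hamp, which encodes the iron hormone hepcidin, was at 23.0 and 4.36 CPM in CreLox zebrafish without HCC, against 118, 166, 265 and 198 CPM in controls (a log2 difference of -3.77 ± 0.70 (SE), edgeR adjusted p = 0.0746). MAPK12, a p38 kinase gene, was at 0.301 and 1.58 CPM in CreLox zebrafish without HCC, against 20.4, 9.72, 17.4 and 11.07 CPM in controls. The heat shock gene hsp70l was at 0.516 and 0.425 CPM in CreLox zebrafish without HCC, against 19.2, 7.66, 3.59 and 3.83 CPM in controls.

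**Figure D2:**
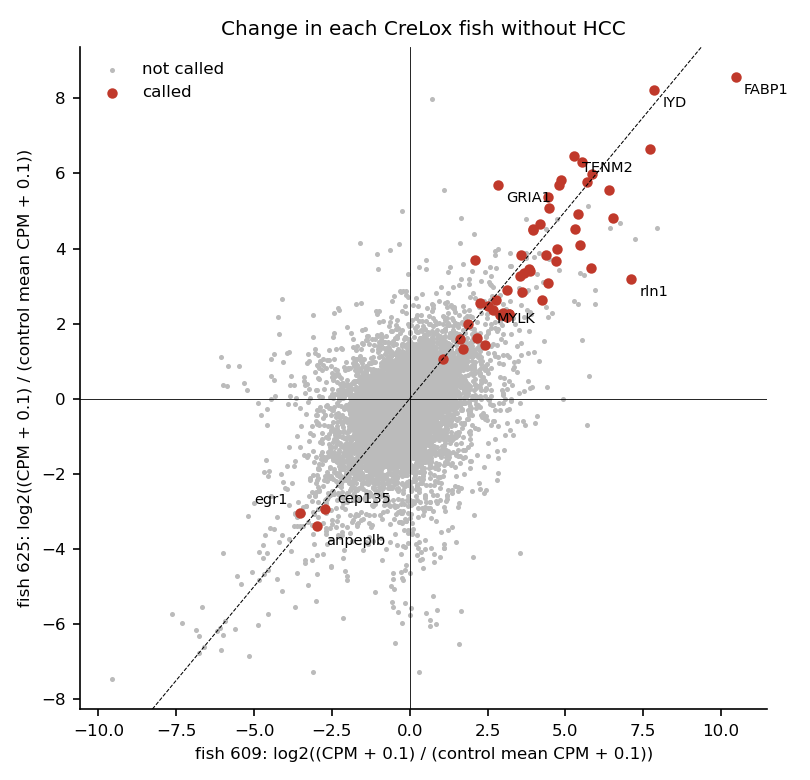
Log2 ratio of each fish to the mean of the 4 controls (CPM plus 0.1 in numerator and denominator), fish 609 on the horizontal axis and fish 625 on the vertical axis, for 16837 genes in grey and the 53 called genes in red, with the line of equality dashed. Of the 50 upregulated genes 38 were within 2-fold between the fish, and 32 were higher in fish 609.

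Fish 609 and 625 differed less from each other than either did from any control. The median absolute log2 difference over genes was 0.414 between them, 0.467 to 0.577 between either of them and a control, and 0.347 to 0.625 between controls, where the lowest values were those within the control pairs. Among the called genes, 3 differed by over 4-fold between fish 609 and 625. rln1 was higher in fish 609, with 17.98 and 1.08 CPM in fish 609 and 625. GRIA1 was higher in fish 625, with 0.731 and 5.87 CPM, and si:ch211-180f4.1 was higher in fish 609, with 6.24 and 1.159 CPM. FABP1, at 634 and 169.8 CPM, was just under that limit.

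The remaining gene groups showed few calls. Their unadjusted counts stand beside 887 genes higher and 825 lower among all 16837 tested, at an unadjusted p under 0.05 from edgeR. Acute phase and complement genes had 0 of 51 called by edgeR and 4 lower by DESeq2, with 7 lower and 0 higher at an unadjusted p under 0.05 and a median of -0.26. The median was 0.06 against control fish 628 and 630 and -0.54 against fish 621 and 622, so its sign depended on the control pair. The C-reactive protein genes crp1 and crp2 were both below all controls. crp1 was at 0.387 and 0.232 CPM in CreLox zebrafish without HCC, against 7.83, 0.531, 15.2 and 13.3 CPM in controls, and crp2 at 30.6 and 27.5 CPM in CreLox zebrafish without HCC, against 135, 139, 95.5 and 54.7 CPM in controls. Amino acid transporter genes had 0 of 40 called by edgeR and 1 lower by DESeq2, 6 lower and 0 higher at an unadjusted p under 0.05, with SLC1A5, a glutamine transporter gene, at 4.39 and 9.42 CPM in CreLox zebrafish without HCC, against 15.6, 22.4, 25.1 and 46.6 CPM in controls (log2 fold change -1.99 ± 0.47 (SE), adjusted p = 0.173 by edgeR). Endoplasmic reticulum chaperone and unfolded protein genes had 0 of 35 called by edgeR and 1 lower by DESeq2, with 4 lower at an unadjusted p under 0.05. Their median was -0.78, and it was -1.155 against control fish 628 and 630 and -0.00199 against fish 621 and 622. HSPA5, the main chaperone of that group, was at 156 and 351 CPM in CreLox zebrafish without HCC, against 1014, 2839.5, 199 and 215 CPM in controls, so that fish 628 and 630 stood apart from the other controls. In glucose metabolism, edgeR called 1 of 45 genes, which was gckr, and DESeq2 called 1 higher and 1 lower, with 3 higher and 5 lower at an unadjusted p under 0.05 from edgeR. SLC2A1, a glucose transporter gene, was at 2.84 and 2.55 CPM in CreLox zebrafish without HCC, against 20.2, 15.7, 10.4 and 7.09 CPM in controls (-2.31 ± 0.52 (SE) on the log2 scale, with an edgeR adjusted p = 0.138). LDHA, a lactate dehydrogenase gene, was at 8.30 and 3.55 CPM in CreLox zebrafish without HCC, against 27.3, 23.0, 8.96 and 9.42 CPM in controls. Circadian clock genes had 0 of 36 called by edgeR, 2 lower by DESeq2 and 4 lower at an unadjusted p under 0.05, among them cry5 and PER2. cry5 was at 1.08 and 2.39 CPM in CreLox zebrafish without HCC, against 7.37, 12.5, 14.1 and 9.03 CPM in controls. PER2 was at 9.63 and 30.7 CPM in CreLox zebrafish without HCC, against 62.6, 57.3, 56.7 and 47.5 CPM in controls. Of 49 cytochrome P450 genes 0 were called by edgeR, whereas DESeq2 called 3 higher and 1 lower, and 5 were higher and 2 lower at an unadjusted p under 0.05. Myc family and ribosome biogenesis genes had medians of -0.02 and 0.01. Of the groups not yet named, edgeR called 0 of 36 genes of cholesterol synthesis and uptake (2 higher and 2 lower unadjusted) and 0 of 40 of fatty acid oxidation (1 and 2). It called 0 of 10 vitellogenin and estrogen response genes (0 and 1), 0 of 31 Nrf2 antioxidant genes (2 and 4) and 0 of 41 interferon response genes (0 and 1). It also called 0 of 28 growth hormone and IGF genes (0 and 1), 0 of 16 liver progenitor genes (3 and 2) and 0 of 30 p53 target genes (1 and 2). In these groups DESeq2 called 2 liver progenitor genes higher and 1 gene lower in each of the cholesterol, Nrf2, interferon and p53 groups. Of 3 relaxin and insulin family genes tested, rln1 was called.

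**Figure D3:**
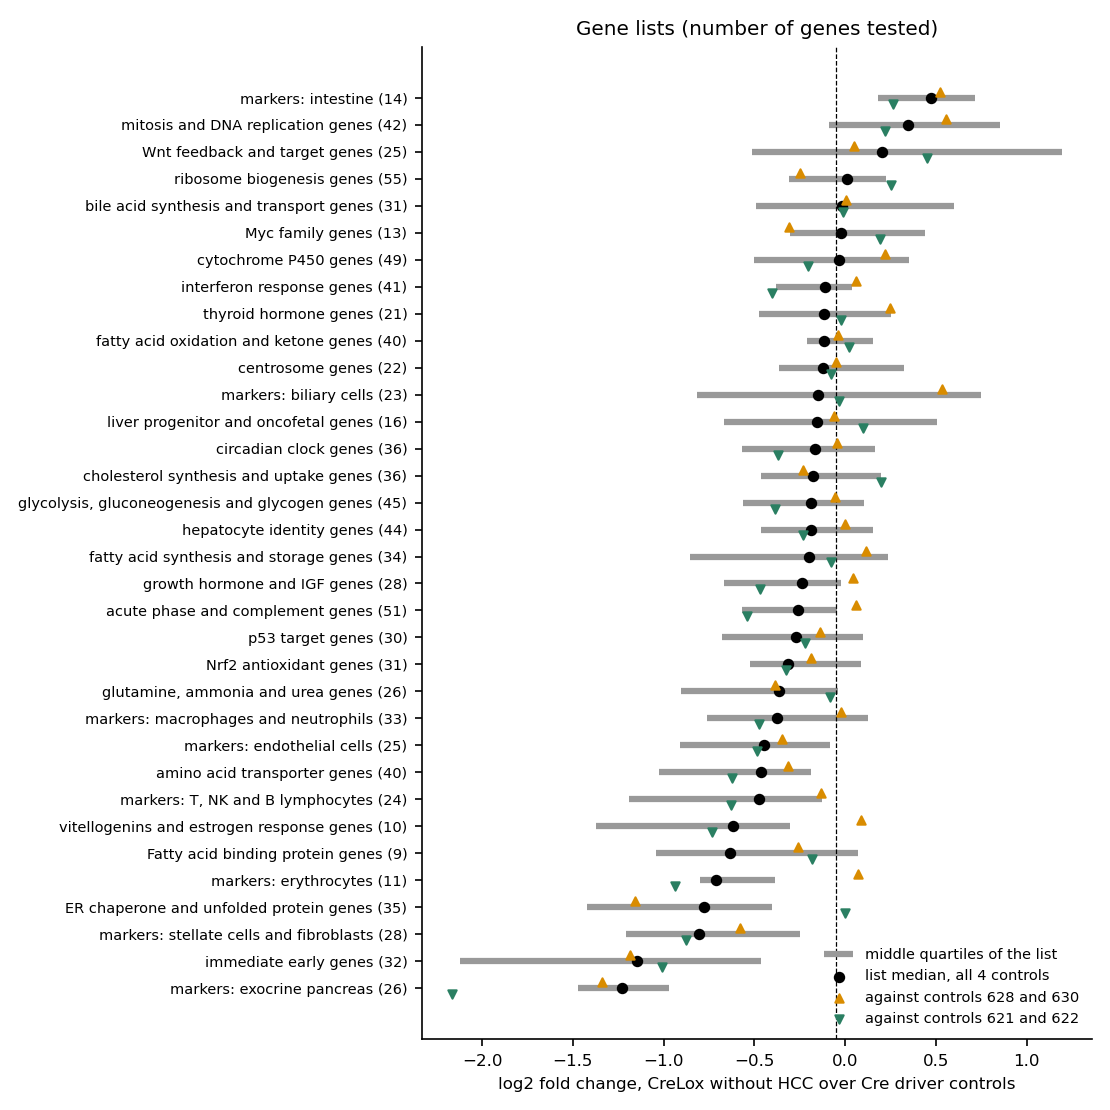
Median log2 fold change of CreLox without HCC over controls for each gene list with at least 9 tested genes (black points, with bars from the lower to the upper quartile), with the medians against control fish 628 and 630 (orange triangles pointing up) and against fish 621 and 622 (green triangles pointing down). The dashed line is the median of all genes, -0.05, and the immediate early genes lie at -1.14 with both control pairs on the same side.

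Markers of other cell types were set beside these changes. Among all 16837 genes tested, 887 were higher and 825 lower at an unadjusted p under 0.05 from edgeR. The summed level of 31 stellate cell and fibroblast markers was 5850 and 5218 CPM in CreLox zebrafish without HCC, against 5478 to 11917 CPM in controls, and most of it was FN1. The stellate markers HAND2, col1a1a and PDGFRB reached at most 4.85, 12.2 and 4.59 CPM in these 6 fish, far below the sum. Of 28 of these tested, 10 were lower and 1 higher at an unadjusted p under 0.05, with a median of -0.80, and TAGLN, a smooth muscle gene, was at 75.1 and 47.3 CPM in CreLox zebrafish without HCC, against 16.6, 35.1, 17.0 and 25.2 CPM in controls. Biliary markers summed to 4876 and 3661 CPM in CreLox zebrafish without HCC and 2197 to 3714 CPM in controls, and 1 of 23 tested was called by edgeR, lgals2b. DESeq2 called 2 of them higher and 1 lower, and 4 were higher and 2 lower at an unadjusted p under 0.05 from edgeR. The keratin gene krt4, named above as a skin gene and used here as a biliary marker, was at 169 CPM in control fish 628. In the other controls it was at most 31.8 CPM. Endothelial markers summed to 154.8 and 168 CPM in CreLox zebrafish without HCC and 168 to 254 CPM in controls. Of 25 tested, 0 were called by edgeR or DESeq2, 4 were lower and 0 higher at an unadjusted p under 0.05, and the median was -0.45. Both CreLox fish lay below all controls for 9 of the 25 endothelial markers and 8 of the 28 stellate cell and fibroblast markers, beside 8.28% of all genes, and above them for 0 and 1. Exocrine pancreas markers summed to 839 and 349 CPM in CreLox zebrafish without HCC and 365 to 1502 CPM in controls, with a median log2 ratio to controls of 0.34 in fish 609 and -3.94 in fish 625. Intestine markers summed to 4820 and 3157 CPM in CreLox zebrafish without HCC and 2138 to 4116 CPM in controls. The intestinal gene FABP2 was at 195 and 198 CPM in fish 609 and 625, far below these sums. Which cells the summed counts came from was not tested. Erythrocyte markers summed to 241 and 197 CPM in CreLox zebrafish without HCC and 138 to 649 CPM in controls. Macrophage and neutrophil markers summed to 393 and 649 CPM in CreLox zebrafish without HCC and 428 to 1004 CPM in controls, and lymphocyte markers to 22.5 and 31.2 CPM in CreLox zebrafish without HCC and 21.4 to 52.4 CPM in controls. None of the markers of these 3 cell types, or of germ cells, was called by edgeR, and DESeq2 called 1 lymphocyte marker lower. At an unadjusted p under 0.05 from edgeR 0 of 11 erythrocyte markers differed, 2 macrophage and neutrophil markers were higher and 2 lower, and 3 lymphocyte markers and 1 germ cell marker were lower. The germ cell genes DDX4, PIWIL1 and SYCP3 and the intestinal VIL1 were under 1 CPM in each of the 6 fish. The exact permutation test over 2 against 4 fish, two-sided, cannot go below p = 0.0667, and over the 13 library and marker measures it gave no p under 0.133. The part of these cell types in the called genes was not tested.

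**Figure D4:**
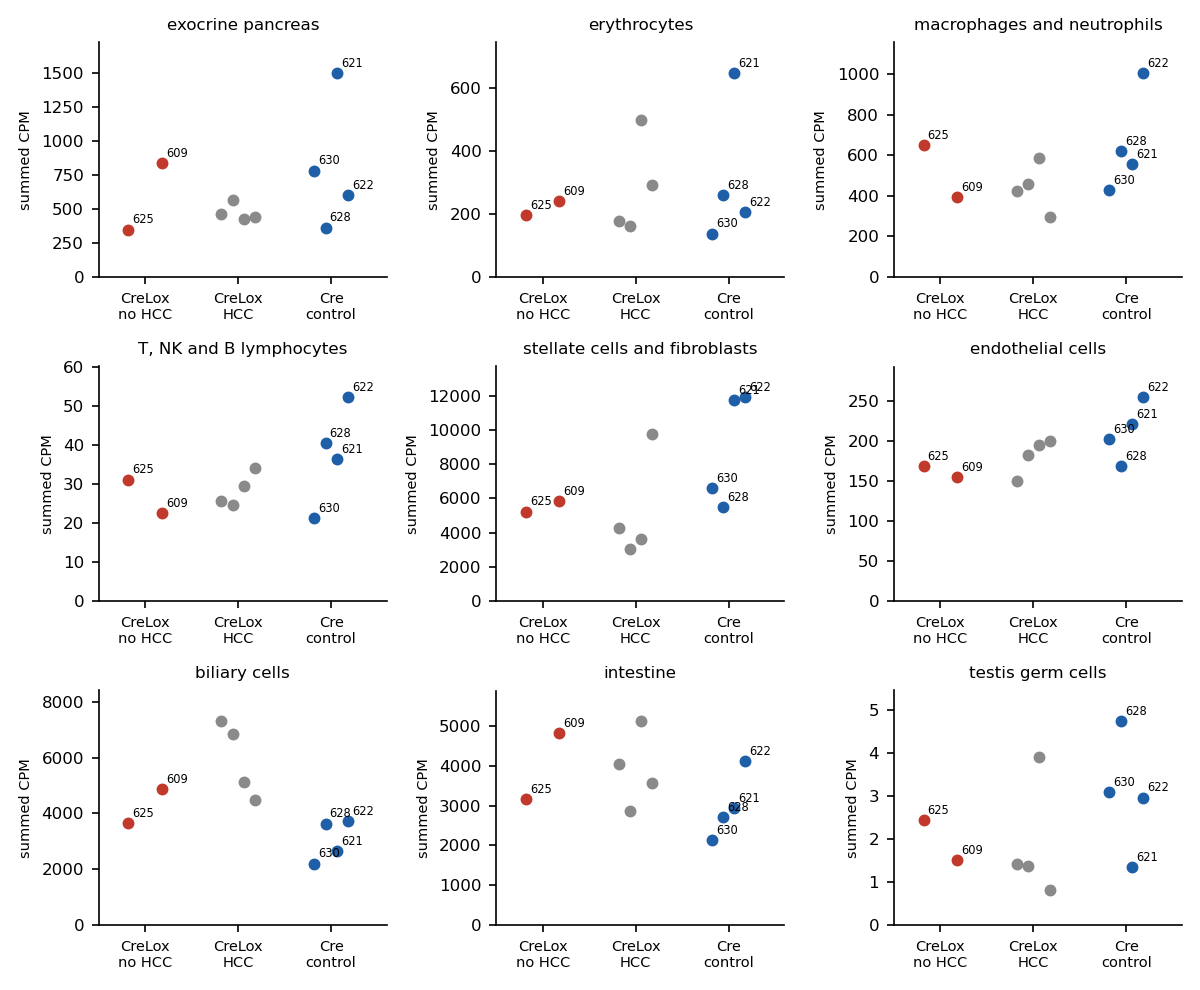
Summed CPM of the markers of 9 cell types per fish on a linear axis, with CreLox without HCC on the left, CreLox with HCC in the middle and controls on the right of each panel. Biliary markers were 4876 and 3661 CPM without HCC and 2197 to 3714 CPM in controls.

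CreLox zebrafish with HCC are of the same line, age and treatment, and their comparison with controls uses the same 4 controls, so only values are given side by side. FABP1 was at 634 and 169.8 CPM without HCC and 270.3 to 1376 CPM with HCC, a range that held fish 609 and not fish 625. WIF1 was at 20.6 and 24.9 CPM without HCC and 7.77 to 22.8 CPM with HCC. MYLK was at 92.2 and 89.7 CPM without HCC and 77.8 to 134 CPM with HCC. lgals2b was at 535 and 364 CPM without HCC and 742 to 1250.2 CPM with HCC. LEF1 was at 1.85 and 2.32 CPM without HCC, above the 0.175 to 0.901 CPM with HCC. cep135 was at 0.602 and 0.502 CPM without HCC and 0.402 to 0.839 CPM with HCC. egr1 was at 2.49 and 3.51 CPM without HCC and 2.76 to 8.17 CPM with HCC. Of the 50 upregulated genes, both fish without HCC were within the range of the 4 fish with HCC for 22 and below their mean for 31, and their mean was above that of the fish with HCC for 13. Tested directly, 1 of 16837 genes (0.00594%) differed at an adjusted p under 0.05 from edgeR and 514 at an unadjusted p under 0.05, and 6 of the 50 upregulated genes were among these 514. The gene called was si:dkey-150l7.10, at 4.64 and 6.37 CPM without HCC and no count in any fish with HCC, and it lay at 2.303, 3.15, 4.33 and 2.82 CPM in controls. In the HepABC experiment it was at 13.7, 5.28, 0, 0 and 0 CPM in non-transgenic siblings. The HepABC livers with HCC had 3.74, 0, 0, 0 and 0 CPM. Fish of the same group thus differed there in whether this gene had counts, and a link to tumors was not tested. GRIA1 was close to absent in fish with HCC, with 0.731 and 5.87 CPM without HCC and 0 to 0.0311 CPM with HCC, and the direct difference did not pass the test (log2 fold change 8.01, adjusted p = 0.369 from edgeR).

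The HepABC experiment shares no library with the CreLox experiment. HepABC zebrafish carry Tg(fabp10a-pt-beta-catenin), which drives activated β-catenin in hepatocytes without a switch, and 5 with HCC were set against 5 non-transgenic siblings at 6 mpf, all without larval treatment. Of the 50 upregulated genes 44 were tested there, and 33 of the 44, or 75%, were also higher in HepABC HCC, whereas 17.4% of all genes tested in that experiment were called higher. None of the 44 was called lower by edgeR, against 16.2% of all genes tested, and 2 were lower at an unadjusted p under 0.05, 1 by DESeq2 and 2 by limma voom. A gene that is silent in the siblings enters this count only where it is high in HepABC HCC, and 6 of the 50 did not pass the filter on low counts, so the count describes these 44 genes only. The median log2 fold change of the 44 was 3.24, against -0.00101 over all genes. CEMIP had 36.2 ± 21.4 CPM in HepABC HCC and 0.136 ± 0.0927 CPM in non-transgenic siblings (SD, n = 5 each), a log2 fold change of 8.06 (adjusted p = 2.37e-05 from edgeR). WIF1 had 75.4 ± 40.6 CPM in HepABC HCC and 1.05 ± 0.992 CPM in siblings, a log2 fold change of 6.15 (adjusted p = 0.000208 from edgeR). For MYLK the values were 232 ± 63.6 CPM in HepABC HCC and 15.4 ± 3.75 CPM in siblings, a log2 fold change of 3.91 (adjusted p = 1.75e-05 from edgeR). The 4 pimr genes were called higher there as well. rln1 was not called, with a log2 fold change of 2.37 (adjusted p = 0.221 from edgeR). Some of the 44 genes were not low in every sibling. XKR9 ranged from 6.04 to 40.0 CPM in siblings and FABP1 from 0.315 to 64.0 CPM. dpp4 ranged from 0.368 to 30.8 CPM there and rln1 from 0.0998 to 14.8 CPM.

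Of the 3 downregulated genes, 2 were tested in that experiment and 0 were called lower. The gene not tested, anpeplb, ranged from 0.0761 to 51.5 CPM in siblings and from 0.0394 to 0.0840 CPM in HepABC HCC. cep135 was higher in HepABC HCC, with 2.09 ± 1.06 CPM in HepABC HCC and 0.631 ± 0.296 CPM in siblings (log2 fold change 1.73, adjusted p = 0.0118 from edgeR). egr1 had a log2 fold change of -1.42 there (adjusted p = 0.0636 from edgeR). The HepABC livers differ from the CreLox livers without HCC in having tumors, in age, in transgene and in larval treatment.

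**Figure D5:**
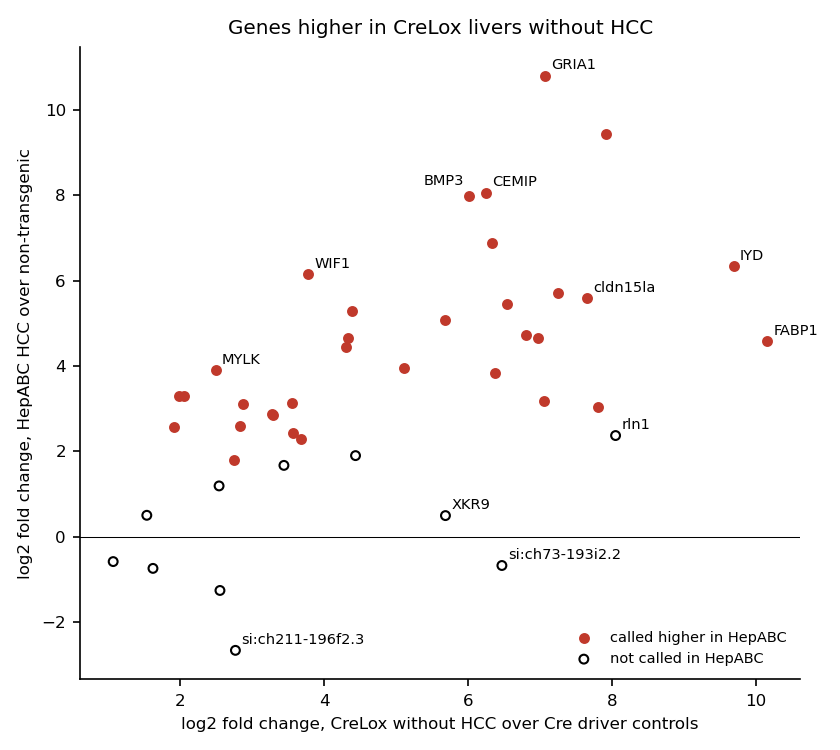
Log2 fold change of 44 upregulated genes in CreLox without HCC over controls, against their log2 fold change in HepABC HCC over non-transgenic siblings. Filled points are the 33 genes called higher in HepABC HCC, and 39 of the 44 lie above 0 on that axis.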

How the data were processed

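Livers of 20 zebrafish were profiled by bulk RNA-seq. According to the methods and the submitters' processing notes, the authors removed optical duplicates with BBMap's clumpify in the CreLox experiment, trimmed adapters with cutadapt, aligned reads to GRCz11 with STAR 2.6.1b and summed them over the genes of the Ensembl annotation by featureCounts 1.6.3. The deposited values are unnormalized counts of reads per gene for 32520 genes. The strand setting of the counting is not given in the sources used here, and the reads were not reprocessed. There were 0 columns of other samples.

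edgeR 4.0.16 under R 4.3.3 was used for the tests. In each experiment all 10 libraries were scaled by TMM and fitted by glmQLFit with a mean per group, and contrasts were tested by glmQLFTest. filterByExpr kept 16837 genes of the CreLox and 15864 of the HepABC experiment. Benjamini-Hochberg adjustment covered every gene kept, and genes were called at an adjusted p under 0.05. With all 10 CreLox libraries in the fit, the spread of the 2 fish without HCC is shared with the other groups. CPM uses TMM-scaled library sizes, and 0.1 was added before logarithms of single fish. The standard error is the absolute log2 fold change divided by the square root of F. A count of 0 allows up to 3 counts per library, so folds against controls without counts are lower bounds at that floor, and ratios on 1 to 3 control counts carry exact 95% counting intervals. Library and marker measures were compared by the exact permutation test over 15 arrangements, two-sided. The procedure was run on simulated counts drawn without the control pairs, so that run does not show how the pairs affect the calls. Library pairs were compared by chi-square per degree of freedom, with a lowest value of 59.7, so that no library was present in duplicate.

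The fish compared, the 36 gene lists (27 of pathways and 9 of cell type markers) and the rule for named genes were chosen with earlier results of these data known. Of 1291 listed symbols 1185 matched the table, 217 of them through the base of the symbol without its duplicate letter. Genes were named if they were called lower, if they were among up to 25 genes called higher with the largest log2 fold change, a symbol and at least 1 CPM in both fish, if they were called members of a list, if they were among the 4 members with the largest change and at least 1 CPM on average in the lists on Wnt, glutamine, fatty acid binding protein, bile acid, immediate early and hepatocyte genes, if they were among 10 called genes that differed most between fish 609 and 625, if they differed between CreLox zebrafish without and with HCC, or if the study follows them (glutamine synthetase, AXIN2, WIF1, MYC, JUN, MTOR and fabp10a). Other genes named were chosen after their values were seen, as was the split of the controls into pairs. Symbols come from a reference gene table, and 11 of the 53 called genes share theirs with another identifier. The alternatives were DESeq2 1.42.0, its size factors in edgeR, limma 3.58.1 voom with sample weights, no TMM factors, other low-count filters, the compared groups alone, a required change of at least 1 on the log2 scale, an unadjusted threshold, each fish left out in turn and each control pair left out. The paper gives fewer CreLox fish with HCC than the 4 in the labels, and all 4 were used.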

Additional observations from a re-analysis of the deposited data

Results flagged for a closer look

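A control that stood apart from the other 3 was looked for in each of the 53 called genes, as the gap between an extreme control and its nearest neighbor divided by the range of the 4 controls. It exceeded Dixon's critical value at the 95% level in 11 genes, and chance alone flags about 1 in 20 such groups. The ratio was 0.832 for cldn15la, 0.884 for XKR9, 0.8292 for MYLK, 0.958 for PIK3R4 and 0.889 for atf5a. For GRIA1, prlhr2b, pimr170, IYD, si:ch211-180f4.1 and ENSDARG00000104625 a single control had counts and the others had none, which fixes the ratio at 1.0. Both CreLox zebrafish without HCC lay beyond all 4 controls in each of the 53 genes, those with a control that stood apart included. The 53 genes were called on these same fish, so this separation does not show that such controls lack influence on the calls.

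Between CreLox zebrafish without HCC and those with HCC, a difference passed the test for si:dkey-150l7.10 alone (log2 fold change 10.199, adjusted p = 0.00625 from edgeR). Its level was 4.64 and 6.37 CPM without HCC and 0 in all fish with HCC. In non-transgenic siblings of the HepABC experiment, which had no HCC, it ranged from 0 to 13.7 CPM. The gene was not called in the fit of the compared groups alone.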

How the results depend on the processing

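The number of called genes depended on the processing, whereas each of the 53 called genes kept its sign in every alternative with a value. DESeq2's Wald test called 349 genes (214 higher and 135 lower), including all 53, and limma voom with sample weights 2 (2 higher and 0 lower). With at least 10 counts in every library 13 were called (12 and 1), 20 of the 53 being tested there. With the compared groups alone 26 were called (25 and 1), at an unadjusted p under 0.05 1712 (887 and 825), and with all genes that had at least 1 count the genes called lower numbered 5. Without 1 fish at a time the number ranged from 24 to 80, with 22 to 74 higher and 1 to 6 lower. The lowest numbers came without control fish 630 (24) and without fish 609 (24), and 30 were called without fish 625. Fish 624 with HCC enters through the shared spread, and without it 80 were called. Without control fish 628 and 630, 20 genes were called (15 higher and 5 lower), 10 of them among the 53. Without fish 621 and 622, 47 were called, 11 of them lower, and 18 were among the 53. Both were chosen after seeing the data. DESeq2's size factors gave 53 and library sizes without TMM 47, and that last scaling moved the median of all genes to 0.0951. For CreLox zebrafish without against with HCC the number was 16 by DESeq2, 0 with at least 10 counts in every library, 0 with the compared groups alone, 514 unadjusted, and 0 to 1 without single fish. For HepABC HCC it was 8809 without TMM factors, against 5342. No paired analysis was possible because the groups are different fish and their numbers are given in accession order. With 2 fish the size of single changes is uncertain, and genes near 0 CPM in controls rest on few counts.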
